A study of Mus musculus with 11 samples.

Results

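The genes described here are the expressed solute carriers of BV2 cells: 131 genes, 0.503% of the 26061 genes in the deposited table. They were chosen by a measured value, a mean of at least 7.5 on the deposited log2 scale over all 11 libraries, and by a symbol that starts with Slc and a digit. Of 354 such symbols in the table, 140 reached that mean, and 9 of these were dropped (Slc7a1, Slc7a2, Slc7a11, Slc40a1, Slc11a1, Slc11a2, Slc2a1, Slc16a1 and Slc16a3) and enter no count below. Of the 214 Slc genes under the threshold, 56 had 0 reads in every library. Just inside the threshold were Slc6a13 at 7.51, Slc25a15 at 7.52, Slc1a4 at 7.61, Slc5a6 at 7.62 and Slc39a3 at 7.68. Just outside were Slc29a2 at 7.45, Slc25a40 at 7.42, Slc35a1 at 7.33, Slc36a2 at 7.32 and Slc26a11 at 7.26. Because the mean ran over all groups, 6 members (Slc12a9, Slc1a4, Slc25a15, Slc39a3, Slc5a6 and Slc6a13) had at least 1 group mean under 7.5 and passed through the groups where they were higher. All 131 members passed the filter on low values. The members Slc4a1ap, Slc7a6os and Slc9a3r1 carry the name of a transporter beside which they were found but are not carriers, and were kept because the choice used the symbol.

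BV2 is an immortalised mouse microglial line, so all groups come from 1 line grown in culture. All cells were transfected by lipofection, either with a control siRNA of no target (siScr) or with siRNA against Tet2, which encodes a dioxygenase acting on methylated cytosines. Growth medium held 10% serum and treatment medium 5%, and 48 h passed between transfection and treatment. Treated cells received lipopolysaccharide (LPS), a component of the outer membrane of bacteria that Toll-like receptors sense, at 1 µg/ml for 3 h. This gave 3 libraries of siScr cells without LPS (siScr_Ctrl), 3 of siScr cells with LPS (siScr_LPS), 3 of Tet2 siRNA cells without LPS (siTet2_Ctrl) and 2 of Tet2 siRNA cells with LPS (siTet2_LPS). Libraries are named below by group and replicate number, as in siScr_LPS 2. Their depth ran from 8739716 to 23030426 reads (median 18844761). Library siScr_Ctrl 3, with 8764031 reads, stood apart: it detected 16406 genes, against 12866 to 14180 in the others. Normalised reads of Tet2, the gene the siRNA targets, were 1988, 2399 and 1827 in siScr_Ctrl and 1453, 1988 and 1662 in siTet2_Ctrl, ranges that overlapped. After LPS they were 10405, 16792 and 14762 in siScr_LPS and 7969 and 9238 in siTet2_LPS, which lay apart. Of 12 microglia and macrophage markers 10 were found in the table under the symbols used, and 7 of these had a mean of at least 7.5, while Cx3cr1, P2ry12 and Tmem119, which mark microglia in tissue, lay below it. Among 18 genes that mark neurons, glia and vessels 3 passed the filter (Slc1a2, Tubb3 and Mbp), none with a mean of 7.5, Mog, Cldn5 and Dcn were at 0 in all libraries, and the list summed to 12.9 to 116 normalised reads per library. Nothing in the labels ties replicates to separate cultures, so p-values measure only the spread between these libraries, which may be technical.

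Solute carriers are membrane proteins that move amino acids, sugars, metals, ions, nucleotides and vitamins across the plasma membrane and the membranes of organelles. Exchangers and cotransporters draw on gradients that ion pumps set up, and some need a partner protein to reach the membrane, as the light chains of family 7 need Slc3a2. In macrophages and microglia, carriers supply fuel and amino acids to activated cells, move zinc and copper in and out of the cytosol and of vesicles, and act in lysosomes near innate immune receptors.

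The levels of the 131 members spanned a wide range. Normalised reads averaged from 153 to 11221 per member over the 11 libraries, with a median of 847. Levels were compared between genes per kilobase of the longest protein-coding transcript, where they ran from 25.3 (Slc38a9, an arginine sensor of the lysosome) to 5516 (Slc25a5), a ratio of 218. The 3 highest members were carriers of the inner mitochondrial membrane: Slc25a5, an ADP/ATP exchanger, at 5516 normalised reads per kb, Slc25a3, the phosphate carrier, at 3755, and Slc25a4, another ADP/ATP exchanger, at 3187. Slc25a5, Slc25a3 and Slc25a4 have near-identical copies in the genome, and how the counting treated reads shared with them is not given in the sources used here, so their levels are uncertain. Next came Slc15a3, a peptide and histidine transporter of the lysosome, at 2625, Slc38a2, a sodium-coupled neutral amino acid transporter, at 2408, and Slc24a5, a sodium, calcium and potassium exchanger known from pigment cells, at 2176. Slc6a6, the taurine transporter, stood at 1758, the heavy chain Slc3a2 at 1551, the phosphate transporter Slc20a1 at 1381 and the ascorbate transporter Slc23a2 at 1334. Exons of 16 members overlap an exon of a protein-coding gene on the opposite strand in the GENCODE annotation of GRCm38. Among these, Slc24a5 shares 921 bases with Myef2, Slc16a6 shares 1052 bases with Amz2, Slc4a2 shares 694 bases with Fastk and Slc25a25 shares 379 bases with Naif1. Whether the counting used strand is not given, so it is not known whether reads of such pairs were kept apart. On the same strand 2 members overlap a protein-coding gene, where strand does not help. Slc5a3 shares 159 bases with Mrps6, and Slc35a3 shares 275 bases with Gm43191. The 131 members belong to 37 families, of which 12 are represented by 1 gene and the mitochondrial carrier family 25 by 27 genes.

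LPS changed the solute carriers of control siRNA cells in both directions within 3 h. Of the 131 members 23 rose and 19 fell at an adjusted p under 0.05, 17.6% and 14.5% (limma's moderated test on the deposited log2 values, adjusted by Benjamini-Hochberg over all 12486 genes kept). Of all genes kept, 13.2% rose and 10.4% fell. Of the 8718 genes with a mean of at least 7.5, 15.2% rose and 9.23% fell, so the members' share of increases lay near that of genes at their level, and their share of decreases above it. The 19 include Slc5a6, which passed the mean of 7.5 through the untreated groups. The median difference was -0.04 over the members and -0.02 over all genes kept. Of the members 15 rose by at least 1 log2 unit and 3 fell by as much. All genes kept leaned the same way, with 7.18% and 3.83%, as did genes with a mean of at least 7.5, with 7.58% and 3.26%. Differences are log2 differences of the deposited values, which understate the change of genes with few reads, and in bulk RNA fewer cells of a kind and less RNA per cell cannot be told apart. The highest and lowest libraries of both groups did not overlap in 60 members, 30 with all LPS libraries above (22.9%) and 30 with all below (22.9%), among them all 42 called members. The same held for 19.2% and 18.3% of all genes kept and for 22.4% and 15.4% of genes with a mean of at least 7.5, so the share above was near that of genes at the members' level. Under quantile normalisation, a second way of scaling libraries to each other, 20 members rose and 25 fell, so that 44.4% of calls were increases in place of 54.8%. Without siScr_Ctrl 3, which stood apart, 22 rose and 18 fell, and 21 and 15 of these were among the 23 and 19. The summed reads of the neuron, glia and vessel markers were 47.9 to 116 in siScr_Ctrl and 19.6 to 54.0 in siScr_LPS, and 1 of the 3 kept, Mbp, was called lower, a call that ended without siScr_Ctrl 1, siScr_Ctrl 2 or siScr_LPS 3. The part of these low levels in the result was not tested.

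**Figure D1:**
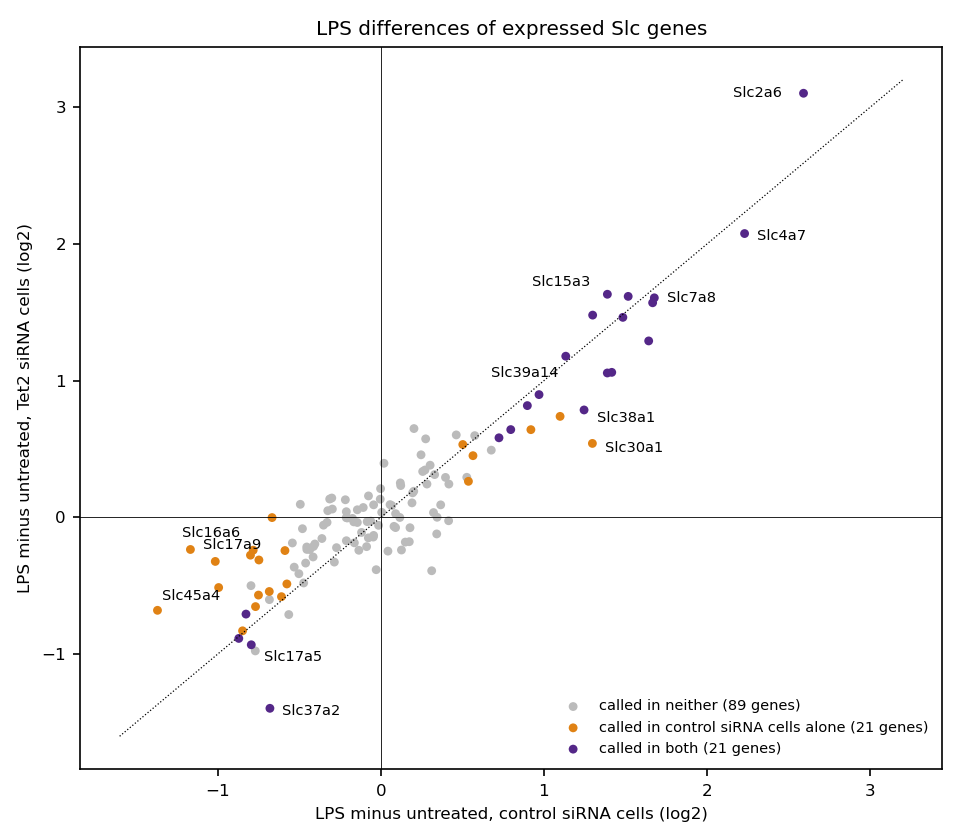
Each point is 1 of the 131 solute carriers, with its log2 difference between LPS-treated and untreated control siRNA cells on the horizontal axis and that of Tet2 siRNA cells on the vertical axis; the dotted line marks equal differences. Slc2a6 and Slc4a7 stand at the upper right in both, 21 genes are called in both, of which Slc37a2 lies well below the line at -0.68 and -1.40, and the 21 called in control siRNA cells alone include Slc30a1, Slc16a6, Slc17a9 and Slc45a4.

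Slc2a6 had the largest increase. It encodes GLUT6, a hexose transporter that sits mainly on internal membranes. Its normalised reads were 317, 531 and 536 in siScr_Ctrl and 2464, 3605 and 2654 in siScr_LPS, means of 461 ± 125 and 2908 ± 611 (SD, n = 3 each). Every LPS library lay above every untreated one, and the log2 difference was 2.59 (SE 0.25, adjusted p = 6.66e-06). Slc4a7, a sodium bicarbonate cotransporter that brings base into the cell, followed, with 1469, 1429 and 1209 reads in siScr_Ctrl and 6228, 6345 and 7006 in siScr_LPS. The replicates of Slc4a7 were close together on both sides, and the difference was 2.23 (SE 0.15, adjusted p = 2.13e-07). Across the 11 libraries the members whose log2 values followed those of Slc2a6 most closely were Slc7a8 (Pearson's r = 0.975), Slc39a14 (0.964) and Slc16a10 (0.964). These correlations are given as a description, since all libraries with LPS share the treatment and each gene shares the library's depth.

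**Figure D2:**
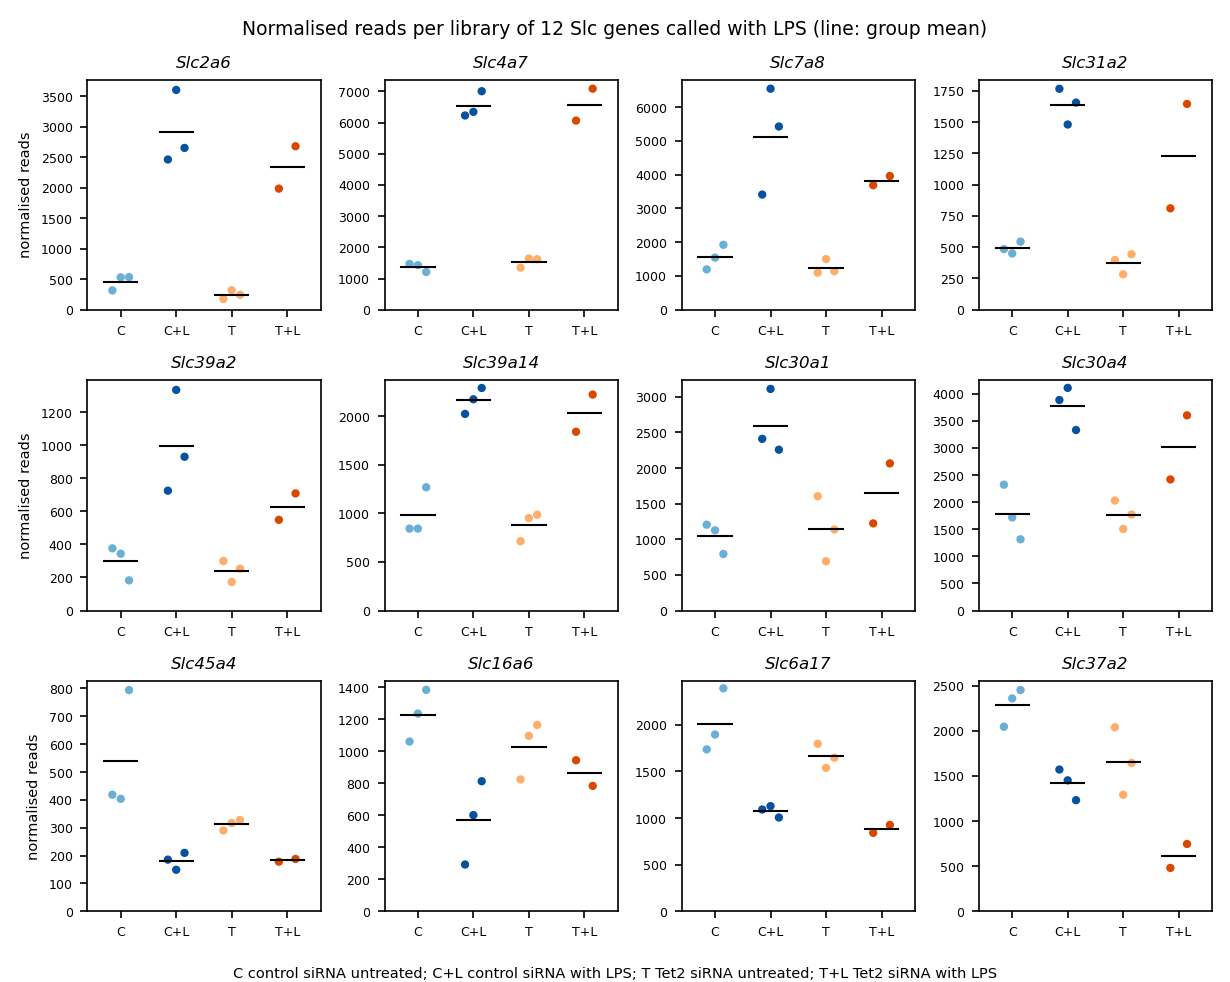
Normalised reads per library (vertical axes, each from 0) of 12 solute carriers called with LPS in control siRNA cells, with the 4 groups on the horizontal axes and a line at each group's mean. The 8 upper panels rise with LPS, Slc4a7 from 1209 to 1469 up to 6228 to 7006 reads in control siRNA cells, and the 4 lower panels fall, with Slc37a2 lowest in Tet2 siRNA cells with LPS (481 and 747).

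Of 16 zinc transporters 5 rose (31.25%), 0 fell and 11 were not called in control siRNA cells (limma, with an unadjusted p under 0.05 in 6). Their differences lay above 0 in 11 and below it in 5, with a median of 0.23. For this and the other class counts below, the shares over all genes kept were 13.2% higher and 10.4% lower. Among genes with a mean of at least 7.5 they were 15.2% and 9.23%. The 5 zinc transporters that rose included importers and exporters. Slc39a2, Slc39a14 and Slc39a1 belong to the ZIP family, which brings zinc into the cytosol, and Slc30a1 and Slc30a4 to the ZnT family, which takes it out of the cytosol, Slc30a1 across the plasma membrane and Slc30a4 into vesicles. Promoters of zinc-responsive genes are known to carry the metal response element, bound by the zinc sensor Mtf1. The 250 bases before the annotated start of Slc30a1 and Slc30a4 are shown, from RefSeq on GRCm38.p6. Both were picked because they rose and held a match to the core of this element. No match was recorded for the importers Slc39a1, Slc39a2 and Slc39a14, though a promoter was available for only 14 of the 16 zinc transporters. Capitals mark each match to the core TGCACNC or TGCGCNC on either strand.
Slc30a1, chr1:191906531-191906780, plus strand: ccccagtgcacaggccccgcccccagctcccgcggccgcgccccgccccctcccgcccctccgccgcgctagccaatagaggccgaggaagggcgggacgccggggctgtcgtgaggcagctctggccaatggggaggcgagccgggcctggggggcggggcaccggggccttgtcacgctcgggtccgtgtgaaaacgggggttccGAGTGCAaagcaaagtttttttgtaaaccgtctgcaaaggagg
Slc30a4, chr2:122702664-122702913, minus strand: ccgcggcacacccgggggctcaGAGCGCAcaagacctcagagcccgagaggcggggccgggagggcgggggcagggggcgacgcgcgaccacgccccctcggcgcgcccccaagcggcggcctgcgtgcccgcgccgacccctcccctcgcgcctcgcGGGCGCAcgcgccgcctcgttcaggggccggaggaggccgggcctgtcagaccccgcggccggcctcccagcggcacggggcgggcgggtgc
The match of Slc30a1 lies 43 bases upstream of the start, and those of Slc30a4 lie 228 and 92 bases upstream.

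The exporter Slc30a1 had 1205, 1126 and 794 normalised reads in siScr_Ctrl and 2410, 3111 and 2258 in siScr_LPS. The LPS libraries all lay above the untreated ones, with a difference of 1.30 (SE 0.29, adjusted p = 0.00504). Slc30a4 had 2322, 1717 and 1314 reads in siScr_Ctrl and 3885, 4108 and 3331 in siScr_LPS, a difference of 1.10 (SE 0.22, adjusted p = 0.00235), again without overlap. Among the importers, Slc39a2 had 376, 344 and 183 reads in siScr_Ctrl and 725, 1335 and 931 in siScr_LPS, a difference of 1.64 (SE 0.28, adjusted p = 9e-04). Slc39a14, which also carries iron and manganese, had 843, 843 and 1268 reads before LPS and 2023, 2174 and 2290 with it, a difference of 1.13 (SE 0.19, adjusted p = 0.000645). Slc39a1 rose by 0.80 (SE 0.14, adjusted p = 0.00104). The LPS libraries of Slc39a14 and Slc39a1 lay closer together than those of Slc39a2, whose highest and lowest LPS values were 1335 and 725. The other 11 zinc transporters lay between -0.45 (Slc30a5) and 0.30 (Slc39a13) and did not pass the test. Without the filter on low values the call of Slc30a1 ended (limma, adjusted p = 0.0592), and the cause was not tested. The zinc-responsive regulator Mtf1 and the zinc-binding metallothioneins Mt1 and Mt2 did not pass either (adjusted p = 0.819, 0.809 and 0.170).

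Copper transporters rose together in control siRNA cells. Slc31a2, a copper transporter of endosomes and lysosomes, had 485, 450 and 545 reads in siScr_Ctrl and 1766, 1480 and 1656 in siScr_LPS, a difference of 1.67 (SE 0.24, adjusted p = 0.00018). Slc31a1, the copper importer of the plasma membrane, rose from 1303 to 1534 up to 2323 to 2398 reads, a difference of 0.72 (SE 0.14, adjusted p = 0.00226). The magnesium transporters Slc41a1 and Slc41a2, the other members of the class, did not pass (adjusted p = 0.588 and 0.446).

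Promoter letters were compared across the members for 4 motifs, in 250 bases upstream of each annotated start, on both strands, for the 103 members (146 starts) that RefSeq's table on GRCm38.p6 holds. The metal response element core occurred in 9 of 18 members that rose, 1 of 13 that fell (Slc6a9) and 26 of 72 that were not called, against 23.8% of all 27025 genes in that table. A gene with several starts counts once, with a match in any of them, among the members and among all genes alike. Among zinc transporters 5 of 14 held it, of which Slc30a1 and Slc30a4 rose while Slc30a5, Slc39a11 and Slc39a3 did not pass. The kB consensus, bound by NF-kB, occurred in 0 of 18 members that rose, 1 of 13 that fell (Slc43a2) and 8 of 72 not called, against 4.46% of all genes. The AP-1 motif TGANTCA occurred in 1 of 18, 2 of 13 and 5 of 72, against 7.82%, and the interferon response pair GAAANNGAAA in 0 of 18, 0 of 13 and 2 of 72, against 3.46%. A match is a run of letters and not a bound site, motifs can share bases, and no match says only that the letters are not in this window.

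Amino acid transporters split. Of 22 members, counted by family, 4 rose and 7 fell in control siRNA cells, the class with the most calls, and the median difference was -0.44. The shares were 18.2% and 31.8%, against 13.2% and 10.4% of all genes kept. Slc7a8, the light chain LAT2 that exchanges neutral amino acids, had 1195, 1543 and 1924 reads in siScr_Ctrl and 3410, 6545 and 5426 in siScr_LPS, a difference of 1.68 (SE 0.24, adjusted p = 0.00019). Its LPS libraries spread widely but all lay above the untreated ones. Slc3a2, the heavy chain that LAT2 needs at the membrane, had 3249, 2803 and 3443 reads without LPS and 6776, 5930 and 5960 with it, a difference of 0.97 (SE 0.15, adjusted p = 0.00029). Slc38a1, which takes up glutamine with sodium, had 5877, 5776 and 5057 reads without LPS and 11249, 15167 and 13572 with it, a difference of 1.25 (SE 0.15, adjusted p = 5.03e-05). Slc43a3, known as a carrier of purine nucleobases although its family is grouped here, rose by 1.48 (SE 0.23, adjusted p = 0.000333).

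Among the amino acid transporters that fell, 3 belong to family 6, which couples uptake to sodium and chloride. Slc6a17, a vesicular transporter of neutral amino acids, had 1735, 1895 and 2389 reads in siScr_Ctrl and 1091, 1128 and 1005 in siScr_LPS, a difference of -0.87 (SE 0.15, adjusted p = 0.000959). Its LPS libraries were close together and all lower. Slc6a6, the taurine transporter, had 12304, 13686 and 16964 reads without LPS and 6755, 9808 and 9038 with it, a difference of -0.75 (SE 0.18, adjusted p = 0.00785). Slc36a1, a proton-coupled transporter that exports amino acids from lysosomes, fell by 0.68 on the log2 scale (SE 0.17, adjusted p = 0.00894). The third of family 6, the glycine transporter Slc6a9, fell by 0.80 (SE 0.24, adjusted p = 0.0259), a call that ended without any of siScr_Ctrl 1, siScr_Ctrl 3, siScr_LPS 2 and siScr_LPS 3 (differences of -0.84 to -0.63, adjusted p = 0.0528 to 0.101).

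**Figure D3:**
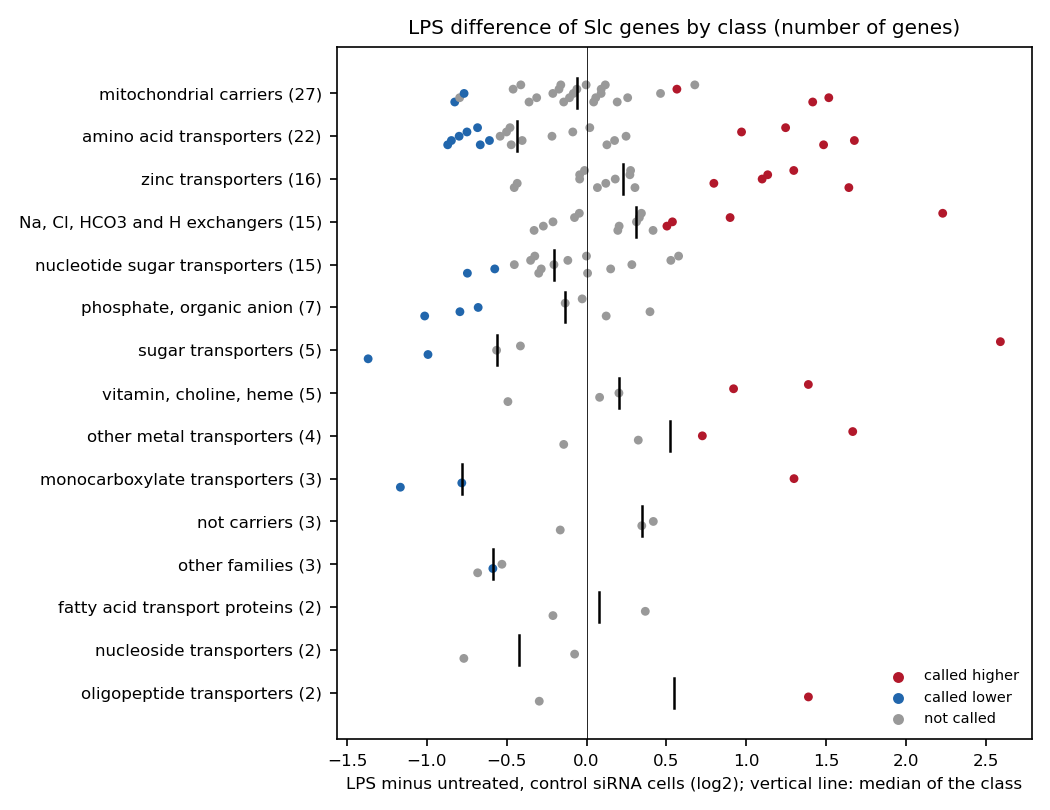
Log2 differences between LPS-treated and untreated control siRNA cells (horizontal axis) for the 131 solute carriers, 1 point a gene, in rows by class of family with the number of genes; a vertical line marks each class's median. Zinc transporters show 5 increases and 0 decreases, and amino acid transporters 4 increases and 7 decreases. The shares over all genes kept were 13.2% higher and 10.4% lower.

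In 4 families, members rose and fell within the same family: families 16, 25, 38 and 43. In family 16, Slc16a10, which carries aromatic amino acids, had 1380, 1283 and 1325 reads in siScr_Ctrl and 2897, 3590 and 3506 in siScr_LPS, a difference of 1.30 (SE 0.14, adjusted p = 1.55e-05). Slc16a6, which carries ketone bodies, had 1060, 1235 and 1383 reads without LPS and 292, 601 and 812 with it, a difference of -1.17 (SE 0.28, adjusted p = 0.00913). The LPS libraries of Slc16a6 spread from 292 to 812 and all lay below the untreated ones. Without the filter on low values the call of Slc16a6 ended (adjusted p = 0.0827). Slc16a13 of the same family fell by 0.78 (adjusted p = 0.0205), a call that ended without siScr_Ctrl 3 or siScr_LPS 2 (-0.58 and -0.65, adjusted p = 0.0688 and 0.0890).

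In family 25, the mitochondrial carriers, 3 of 27 members rose (11.1%) and 2 fell (7.41%), with a median difference of -0.06. Both shares lay below those of all genes kept, 13.2% and 10.4%. Slc25a25, which exchanges ATP-magnesium for phosphate, had 198, 381 and 571 reads in siScr_Ctrl and 983, 1094 and 1140 in siScr_LPS, a difference of 1.52 (SE 0.29, adjusted p = 0.00174). Slc25a37, mitoferrin-1, which brings iron into mitochondria, had 860, 755 and 585 reads without LPS and 1549, 2142 and 2364 with it, a difference of 1.42 (SE 0.22, adjusted p = 0.000363). Slc25a45 fell from 325 to 393 down to 172 to 219 reads, by 0.83 on the log2 scale (SE 0.17, adjusted p = 0.00279). The other 2 calls each ended when any 1 of several libraries was left out. Slc25a36, a carrier of pyrimidine nucleotides, fell by 0.77 (adjusted p = 0.0301), a call that ended without siScr_Ctrl 1, siScr_LPS 1 or siScr_LPS 2 (-0.71 to -0.57, adjusted p = 0.0854 to 0.118). Slc25a17, a carrier of the peroxisome, rose by 0.57 (adjusted p = 0.0429), a call that ended without any 1 of 10 libraries, all but siScr_Ctrl 1 (0.43 to 0.62, adjusted p = 0.0509 to 0.136).

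In family 38, Slc38a1 rose as described, against a decrease of Slc38a2 by 0.61 (SE 0.19, adjusted p = 0.0359), from 18246, 12221 and 12088 reads to 8908, 9201 and 9251. Both take up neutral amino acids with sodium. Slc38a6 fell by 0.67 (SE 0.21, adjusted p = 0.0326). The call of Slc38a2 ended without siScr_Ctrl 1, any 1 of the siScr_LPS libraries or siTet2_Ctrl 3 (-0.62 to -0.41, adjusted p = 0.0590 to 0.138). That of Slc38a6 ended without siScr_Ctrl 1, siScr_Ctrl 3 or any 1 of the siScr_LPS libraries (-0.73 to -0.56, adjusted p = 0.0501 to 0.102). In family 43, Slc43a2, the branched-chain amino acid transporter LAT4, had 3246, 2575 and 2574 reads without LPS and 2241, 1200 and 1336 with it, a difference of -0.85 (SE 0.23, adjusted p = 0.0186). Its call ended without siScr_Ctrl 1, siScr_LPS 2 or siScr_LPS 3 (-0.75 to -0.67, adjusted p = 0.0689 to 0.0866).

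**Figure D4:**
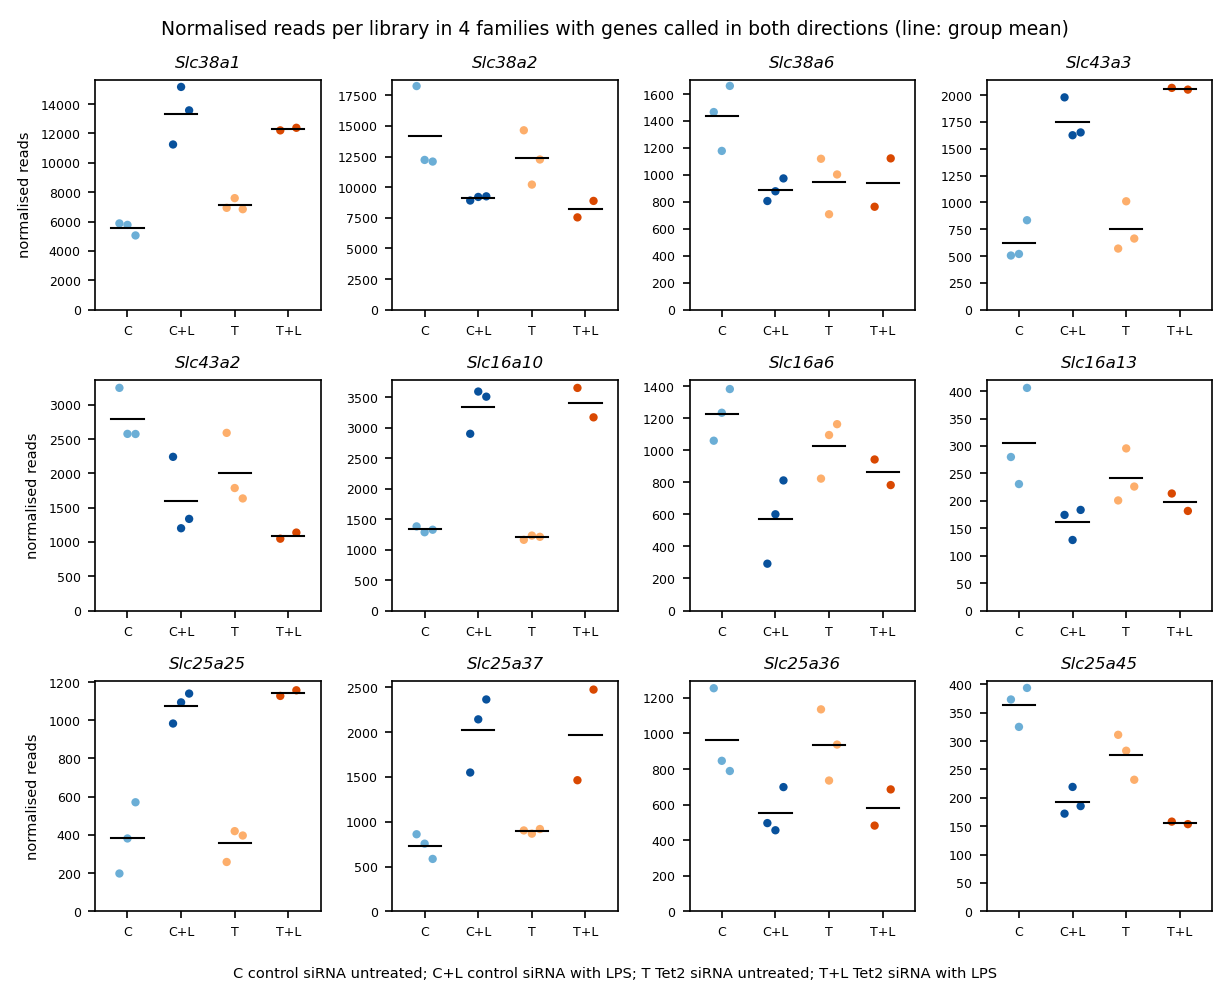
Normalised reads per library (vertical axes, each from 0) of 12 solute carriers in the 4 families with calls in both directions, with the 4 groups on the horizontal axes and a line at each group's mean. Slc16a10 rises from 1283 to 1380 up to 2897 to 3590 reads with LPS in control siRNA cells, beside the decrease of Slc16a6 from 1060 to 1383 down to 292 to 812 reads.

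Sugar transporters, counted by family, numbered 5, of which Slc2a6 rose and Slc45a4 and Slc5a6 fell. Slc45a4 had the largest decrease of all members. It had 419, 404 and 794 reads in siScr_Ctrl and 186, 149 and 210 in siScr_LPS, a difference of -1.37 (SE 0.23, adjusted p = 0.000744). The highest value, 794, was that of siScr_Ctrl 3, and without that library the difference was -1.07 (adjusted p = 0.000763). Slc5a6, which in fact carries vitamins (biotin and pantothenate), had 201, 226 and 316 reads without LPS and 115, 88.5 and 122 with it, a difference of -0.99 (SE 0.23, adjusted p = 0.00721). Its group means were 8.10 in siScr_Ctrl and 7.84 in siTet2_Ctrl, against 7.11 in siScr_LPS and 7.33 in siTet2_LPS. Slc5a6 thus passed the mean of 7.5 through the untreated groups, and its decrease is given as a description. Across the 11 libraries the log2 values closest to those of Slc45a4 were those of Slc6a17 (Pearson's r = 0.905), Slc16a13 (0.903) and Slc5a6 (0.890), again as a description.

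Of 15 ion exchangers and cotransporters 4 rose, 0 fell and 11 were not called in control siRNA cells (limma; 4 with an unadjusted p under 0.05). Their differences lay above 0 in 10 and below it in 5, with a median of 0.31. The shares called were 26.7% higher and 0% lower, against 13.2% and 10.4% of all genes kept. Besides Slc4a7, Slc12a4, a potassium chloride cotransporter, had 429, 518 and 683 reads without LPS and 1319, 889 and 913 with it, a difference of 0.90 (SE 0.20, adjusted p = 0.00607). Its relative Slc12a7 rose by 0.54 (SE 0.17, adjusted p = 0.0363), and Slc24a5 by 0.50 (SE 0.17, adjusted p = 0.0427). The call of Slc12a7 ended without siScr_Ctrl 1, siScr_Ctrl 2, siScr_LPS 1, siScr_LPS 2 or siTet2_Ctrl 3 (0.40 to 0.54, adjusted p = 0.0607 to 0.116). That of Slc24a5 ended without any 1 of 7 libraries, namely siScr_Ctrl 2, siScr_Ctrl 3, siScr_LPS 2, siScr_LPS 3 and the siTet2_Ctrl libraries (0.36 to 0.53, adjusted p = 0.0541 to 0.142), and under quantile normalisation, where the difference was 0.15.

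Among 2 oligopeptide transporters 1 rose, and among 5 carriers of vitamins, folate, choline and heme 2 rose. Slc15a3 had 3201, 4469 and 5588 reads in siScr_Ctrl and 12341, 11808 and 9999 in siScr_LPS, a difference of 1.39 (SE 0.23, adjusted p = 0.000625), while the other oligopeptide transporter, Slc15a4, was not called. Slc44a1, a choline transporter, had 1188, 1035 and 940 reads without LPS and 2499, 2927 and 3002 with it, a difference of 1.39 (SE 0.20, adjusted p = 0.000233). All LPS libraries of Slc15a3 and of Slc44a1 lay above all untreated ones. Slc23a2, the ascorbate transporter, rose by 0.92 (SE 0.27, adjusted p = 0.0235), a call that ended without siScr_Ctrl 2 or any 1 of the siScr_LPS libraries (0.80 to 0.94, adjusted p = 0.0540 to 0.0844) and under quantile normalisation (0.42, adjusted p = 0.315).

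Of 7 phosphate and organic anion transporters, counted by family, 3 fell (42.9%) and 0 rose, against 10.4% and 13.2% of all genes kept. The phosphate transporters of family 20, Slc20a1 and Slc20a2, were not called, with differences of 0.40 and 0.12. Slc17a9, which loads vesicles with ATP, had 380, 420 and 578 reads in siScr_Ctrl and 177, 234 and 219 in siScr_LPS, a difference of -1.01 (SE 0.20, adjusted p = 0.0022). Slc17a5, sialin, which exports sialic acid from lysosomes, had 1214, 1103 and 1015 reads without LPS and 559, 684 and 641 with it, a difference of -0.79 (SE 0.20, adjusted p = 0.0128). In both genes the groups lay apart. Without the filter on low values the call of Slc17a5 ended (adjusted p = 0.0631). Slc37a2, a sugar phosphate exchanger of the endoplasmic reticulum, fell by 0.68 (SE 0.20, adjusted p = 0.0262), a call that ended without siScr_Ctrl 2, siScr_Ctrl 3, siScr_LPS 2 or siScr_LPS 3 (-0.70 to -0.58, adjusted p = 0.0610 to 0.0987).

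Of 15 nucleotide sugar transporters, counted by family, 2 fell (13.3%) and 0 rose, against 10.4% and 13.2% of all genes kept. Nucleotide sugar transporters supply the Golgi with substrates for glycosylation, but the family also holds orphans whose substrate is not known. Slc35b4 had 992, 876 and 824 reads in siScr_Ctrl and 592, 566 and 614 in siScr_LPS, a difference of -0.58 (SE 0.14, adjusted p = 0.00915), and Slc35e2, an orphan of the family, fell by 0.75 (SE 0.17, adjusted p = 0.00651). The replicates of Slc35b4 were close together within both groups. Slc33a1, which brings acetyl-CoA into the endoplasmic reticulum, fell by 0.59 (SE 0.16, adjusted p = 0.0179), a call that ended without siScr_Ctrl 1, siScr_Ctrl 2 or siScr_LPS 1 (-0.58 to -0.46, adjusted p = 0.0517 to 0.0573). Neither the 2 nucleoside transporters, the 2 fatty acid transport proteins nor the 3 genes that are not carriers had a call, and 1, 0 and 1 of them had an unadjusted p under 0.05.

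In Tet2 siRNA cells LPS raised 17 members and lowered 4, 13.0% and 3.05% of the 131, against 7.14% and 4.77% of all genes kept and 7.5% and 4.85% of genes with a mean of at least 7.5. The share of decreases was near that of genes at the members' level, and the share of increases was larger than theirs. The count of increases was lower without siTet2_LPS 3, and the share of all genes in that fit was not compared. This comparison shares no library with that of control siRNA cells, though both share the estimate of the spread, and it rests on 2 LPS libraries. All 17 were among the 23 that rose in control siRNA cells, and all 4 (Slc6a17, Slc25a45, Slc17a5 and Slc37a2) among the 19 that fell, so the overlap was 73.9% and 21.1% of the control siRNA calls and 100% of the Tet2 siRNA calls. All 42 members called in control siRNA cells had a difference of the same sign in Tet2 siRNA cells, and over the 131 members both differences correlated with r = 0.91 across genes, which are not independent replicates. Of the 23 increases 17, and of the 19 decreases 16, lay closer to 0 in Tet2 siRNA cells. The median of the 23 was 1.30 in control and 1.06 in Tet2 siRNA cells, and that of the 19 was -0.78 and -0.54. These members were picked by the control siRNA difference, so this is a description. Under quantile normalisation 15 rose and 9 fell, so that 62.5% of calls were increases in place of 81%. Without siTet2_LPS 3, 10 members rose and 3 fell, without siScr_LPS 1 8 fell, and without siTet2_Ctrl 1 or siTet2_LPS 2 2 fell.

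Slc2a6 again had the largest increase, from 176, 321 and 246 reads in siTet2_Ctrl to 1986 and 2681 in siTet2_LPS, a difference of 3.10 (SE 0.28, adjusted p = 7.11e-06). Slc4a7 rose from 1349, 1640 and 1620 to 6065 and 7088 reads, by 2.08 (SE 0.16, adjusted p = 2.36e-06). Slc15a3, Slc25a25, Slc7a8, Slc31a2, Slc16a10, Slc43a3 and Slc39a14 rose by 1.63, 1.62, 1.61, 1.57, 1.48, 1.46 and 1.18, all with both LPS libraries above the untreated ones. Slc37a2 had 2040, 1292 and 1644 reads in siTet2_Ctrl and 481 and 747 in siTet2_LPS, a difference of -1.40 (SE 0.22, adjusted p = 0.000895). Slc6a17 fell by 0.88 (SE 0.17, adjusted p = 0.00321). The call of Slc25a37 (1.06) ended without siTet2_LPS 3 (0.69, adjusted p = 0.215), as did those of Slc44a1 (1.06, without it 0.62, adjusted p = 0.148) and Slc38a1 (0.79, without it 0.78, adjusted p = 0.0690). That of Slc39a2 (1.29) ended without siTet2_Ctrl 2 or siTet2_LPS 3 (1.09 and 1.12, adjusted p = 0.0581 and 0.175). Slc12a4, Slc31a1, Slc39a1, Slc17a5 and Slc25a45 were called too, and each of these calls ended without any 1 of 3 to 5 libraries of the Tet2 siRNA groups.

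Both zinc exporters were called in control siRNA cells alone. Slc30a1 had 1605, 692 and 1138 reads in siTet2_Ctrl and 1223 and 2066 in siTet2_LPS, ranges that overlapped, with a difference of 0.54 (SE 0.32, adjusted p = 0.385). Slc30a4 had 2030, 1505 and 1772 reads without LPS and 2419 and 3602 with it, a difference of 0.74 (SE 0.24, adjusted p = 0.0717). Slc45a4 went from 290, 317 and 328 reads to 178 and 188, a difference of -0.68 (SE 0.26, adjusted p = 0.122), and Slc17a9 from 283, 418 and 389 to 280 and 283, a difference of -0.32 (SE 0.22, adjusted p = 0.485). Slc16a6 had 823, 1096 and 1163 reads without LPS and 943 and 783 with it, which overlapped. Such a pair of calls does not show that the responses differ, and the difference itself was tested over all members. No member passed (0 higher and 0 lower, against 0 and 0% of all genes kept; limma's smallest adjusted p among members = 1.000, unadjusted p under 0.05 in 4 members, voom on recovered reads 0 calls). By limma's unadjusted p the leading 5 were Slc37a2 (-0.72, SE 0.30), Slc12a9 (-0.70, SE 0.30), Slc17a9 (0.69, SE 0.30), Slc16a6 (0.93, SE 0.43) and Slc38a6 (0.66, SE 0.31), where a positive value is a higher LPS difference in Tet2 siRNA cells.

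Tet2 siRNA against control siRNA gave no called member within either treatment. In untreated cells 0 rose and 0 fell, against 0% and 0.00801% of all genes kept (limma; unadjusted p under 0.05 in 20 members; voom 0 calls). After LPS 0 rose and 0 fell, against 0% and 0% (limma; unadjusted p under 0.05 in 21 members; voom 0 calls), though 3 fell without siScr_LPS 3. In untreated cells the members ranked by limma's p were led by Slc15a3 (-0.98, SE 0.23, adjusted p = 0.335), then Slc32a1 (-0.87), Slc39a13 (-0.71), Slc2a6 (-0.82) and Slc12a7 (-0.51). In LPS-treated cells they were led by Slc37a2 (-1.19, SE 0.22, adjusted p = 0.119), then Slc12a9 (-1.01), Slc12a7 (-0.78), Slc39a1 (-0.48) and the creatine transporter Slc6a8 (-0.71). Before LPS, library ranges lay apart with Tet2 siRNA lower in 29 members (22.1%) and higher in 6 (4.58%), against 9.82% and 7.82% of all genes kept and 9.37% and 9.31% of genes with a mean of at least 7.5. After LPS they lay apart with Tet2 siRNA lower in 35 members (26.7%) and higher in 16 (12.2%), against 21% and 17.9% of all genes kept and 23.1% and 17.6% of genes at the members' level, so the share that was lower lay near the background there. The median difference of the members was -0.19 untreated and -0.09 after LPS, against -0.03 and -0.02 over all genes kept.

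Averaged over both treatments, 10 members were lower with Tet2 siRNA and 0 higher, 7.63% of the 131 against 2.88% lower and 2.28% higher of all genes kept, and 3.01% lower and 2.68% higher of genes with a mean of at least 7.5. Of the 131 members 88 lay below 0, with a median of -0.14, against -0.03 over all genes kept. The average shares its libraries with the LPS comparisons. None of the 10 calls held under every alternative. Without siScr_LPS 2, siTet2_Ctrl 3 or siTet2_LPS 2 0 members were called lower, without siTet2_Ctrl 2 1, without siScr_LPS 1 2, without siScr_Ctrl 3 4, without siScr_Ctrl 2 6 and without siTet2_LPS 3 13. No filter on low values gave 0 as well.

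Slc15a3 had the largest of these differences. It had 3201, 4469 and 5588 reads in siScr_Ctrl against 2793, 1640 and 2219 in siTet2_Ctrl, and 12341, 11808 and 9999 in siScr_LPS against 6058 and 7598 in siTet2_LPS. The Tet2 siRNA libraries lay below the control ones in both treatments, and the averaged difference was -0.86 (SE 0.17, adjusted p = 0.0239). Slc37a2 had 2046, 2359 and 2452 reads in siScr_Ctrl against 2040, 1292 and 1644 in siTet2_Ctrl, and 1571, 1452 and 1232 in siScr_LPS against 481 and 747 in siTet2_LPS, an averaged difference of -0.83 (SE 0.15, adjusted p = 0.0226). Its groups lay apart by a narrow margin before LPS and by a wide one after it. Slc32a1, the vesicular transporter of GABA and glycine, had 589, 442 and 831 reads in siScr_Ctrl against 363, 250 and 342 in siTet2_Ctrl, and 415, 336 and 341 in siScr_LPS against 156 and 248 in siTet2_LPS, an averaged difference of -0.83 (SE 0.18, adjusted p = 0.0283). The zinc transporter Slc39a13 (-0.67) and the choline transporter family member Slc44a2 (-0.43) were also lower, as was Slc39a1 (-0.41). The calls of Slc44a2 and Slc39a1 ended under quantile normalisation, under median centring and without most of the single libraries. Slc39a13 shares 215 exon bases with Psmc3 on the opposite strand.

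Of the 10 members lower with Tet2 siRNA 4 were ion exchangers and cotransporters. Slc12a4 (-0.64) and Slc12a7 (-0.65) are potassium chloride cotransporters, Slc4a2 (-0.62) exchanges chloride for bicarbonate, and Slc12a9 (-0.66) is a relative of the cation chloride cotransporters. With a group mean of 7.42 in siTet2_LPS, Slc12a9 passed the mean of 7.5 through the other groups. Slc12a7 had 952, 949 and 1147 reads in siScr_Ctrl against 702, 715 and 686 in siTet2_Ctrl, and 1796, 1567 and 1158 in siScr_LPS against 797 and 902 in siTet2_LPS (SE 0.13, adjusted p = 0.0239). In all 10 members the Tet2 siRNA libraries lay below the control siRNA libraries in both treatments. The 10 were picked by the averaged difference of these same libraries, so this is a description and adds no support. Of all genes kept, 9.82% lay apart in this direction before LPS and 21% after it. Slc12a2, the sodium potassium chloride cotransporter that works against the potassium chloride ones, went the other way with 1045, 964 and 599 reads in siScr_Ctrl against 1073, 1515 and 1372 in siTet2_Ctrl, and 827, 994 and 1122 in siScr_LPS against 1626 and 1356 in siTet2_LPS. Its averaged difference of 0.60 (SE 0.16, adjusted p = 0.0507) did not pass. Of the 10, Slc12a4, Slc12a7, Slc39a1 and Slc15a3 were called higher with LPS in control siRNA cells. Slc37a2 was called lower with LPS there. The rest of the 10, Slc12a9, Slc32a1, Slc39a13, Slc44a2 and Slc4a2, were not called with LPS.

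Markers of cell types moved with this result. All 10 microglia and macrophage markers kept lay below 0 in the averaged Tet2 siRNA difference, with a median of -0.62, and 4 were called lower (Aif1 -1.38, Fcgr1 -1.06, Itgam -0.93 and Csf1r -0.76). Each of these 4 calls ended without siTet2_LPS 2. The list summed to 48512 to 64685 normalised reads in siScr_Ctrl and 50498 to 61061 in siScr_LPS, against 30643 to 43232 in siTet2_Ctrl and 29852 to 39119 in siTet2_LPS, with no marker at 0 in all libraries. The 3 neuron, glia and vessel markers kept lay below 0 as well, and Mbp was called lower (-0.57, adjusted p = 0.0401), a call that ended without any 1 of 8 libraries. That list summed to 47.9 to 116 reads in siScr_Ctrl and 19.6 to 54.0 in siScr_LPS, against 24.6 to 37.9 in siTet2_Ctrl and 12.9 to 16.4 in siTet2_LPS, with Mog, Cldn5 and Dcn at 0 in all libraries. The part of either list in the result was not tested.

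**Figure D5:**
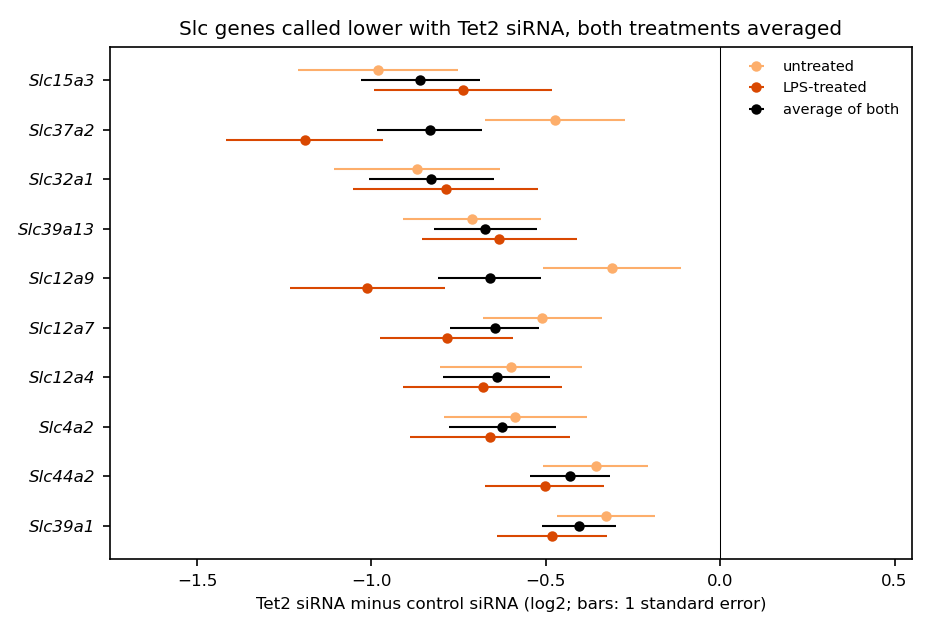
Log2 differences between Tet2 siRNA and control siRNA cells (horizontal axis, bars of 1 standard error from limma) for the 10 solute carriers called lower on average, in untreated cells, LPS-treated cells and the average of both. All points lie below 0, and the untreated and LPS-treated points of Slc37a2 (-0.47 and -1.19) and Slc12a9 (-0.31 and -1.01) lie farthest apart.

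Genes that work with solute carriers were taken from 3 lists and are given for LPS in control siRNA cells, where 13.2% of all genes kept rose and 10.4% fell. Of 19 ion pump subunits kept, which set the sodium and proton gradients, 1 rose (Atp6v1h, a subunit of the proton pump of lysosomes, by 0.46) and 0 fell, and that call ended without any 1 of 8 libraries (adjusted p = 0.0546 to 0.110). Of 14 partner proteins and regulators 3 rose and 0 fell. These were Nedd4l, a ubiquitin ligase that removes carriers and channels from the membrane (1.03), Nfat5, a transcription factor of osmotic stress (0.80), and Oxsr1, a kinase that acts on cation chloride cotransporters (0.58). The call of Nedd4l ended without siScr_Ctrl 3 or siScr_LPS 2 (0.77 and 0.83, adjusted p = 0.0554 and 0.0632), and that of Nfat5 without siScr_Ctrl 2, siScr_Ctrl 3, siScr_LPS 2 or siScr_LPS 3 (adjusted p = 0.0642 to 0.130). Of 22 ABC transporters, which use ATP directly, 3 rose, led by Abcc1, an exporter of glutathione conjugates, at 1.44 (SE 0.22, adjusted p = 0.000334). Abcd2, a fatty acid carrier of the peroxisome, fell by 0.88 on the log2 scale (SE 0.20, adjusted p = 0.00667). The median differences of these lists were 0.14, 0.05 and 0.11, against -0.04 over the solute carriers and -0.02 over all genes kept. Slc9a3r1, counted among the solute carriers by its symbol, is also in the list of partners. In Tet2 siRNA cells, where 7.14% of all genes kept rose and 4.77% fell with LPS, there were 0 calls among pumps and partners (limma, 1 of each list with an unadjusted p under 0.05). Among ABC transporters Abcc1 rose by 1.00 and Abcd2 fell in these cells. The call of Abcc1 there ended without siTet2_Ctrl 3 or siTet2_LPS 3, and that of Abcd2 without siTet2_LPS 2.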

How the data were processed

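The authors deposited 1 table of variance-stabilised log2 values per gene and library (26061 genes, 11 libraries), per the file headers and the values; the RNA was polyadenylated and the protocol kept strand, per the labels. The submitters' processing notes name DESeq2, TopHat2 (2.0.9), Trim Galore (0.3.3) and the build mm9. Read counter, annotation and strand setting: not given in the sources used here. When the transform was inverted, 100% of values fell within 0.01 of a whole number of reads, from which the printed normalised reads and the depth of 8739716 to 23030426 reads per library come.

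The deposited log2 values were fitted with limma (3.58.1; R 4.3.3): 1 model of all 11 libraries with a mean per group, empirical Bayes with a variance trend, two-sided moderated tests and Benjamini-Hochberg adjustment over the 12486 genes that exceeded the table's minimum of 4.02 by 1 log2 unit or more in 2 or more libraries, called at 0.05. The averaged Tet2 siRNA difference is the mean of both treatments' differences. The members, the classes by family and the gene lists were chosen with earlier results of these data known. Named were the 15 largest called changes in each direction of each LPS comparison, all members called in a Tet2 siRNA comparison (the 5 smallest p where fewer than 5), the 10 highest per kilobase, the 5 nearest the threshold on each side, up to 4 members of each class and of each list by p, members of families called both ways, and the 3 members closest to the largest increase and decrease; Slc12a2 and other members outside this rule were named after their values were seen. No other columns were left out. Transcript lengths and exon overlaps came from GENCODE on GRCm38, by name (130 members directly and Slc24a6 through a synonym), and promoters from RefSeq's table on GRCm38.p6. The procedure was tested on simulated counts. The result of 1 gene of the ABC transporter list is not reported here. Alternatives were no filter, a stricter filter (3 libraries at least 2 log2 units above the lowest value), quantile normalisation, median centring, no variance trend, only the groups compared, the replicate block, library weights, voom on recovered reads and each library left out.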

Additional observations from a re-analysis of the deposited data

How the results depend on the processing

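Of 73 calls of single members 38 held under every alternative run, 27 of 42 with LPS in control siRNA cells, 11 of 21 with LPS in Tet2 siRNA cells and 0 of 10 in the averaged Tet2 siRNA difference, and 0 of 2244 alternative values of single members reversed. With LPS in control siRNA cells, counts of increases stayed between 18 and 30 and of decreases between 14 and 25, except 11 decreases with no filter. Leaving out 1 library gave 10 to 19 increases and 2 to 8 decreases with LPS in Tet2 siRNA cells, 0 to 3 decreases for Tet2 siRNA after LPS, and 0 to 2 increases and 0 to 13 decreases in the averaged Tet2 siRNA difference. With LPS in Tet2 siRNA cells, decreases numbered 9 under quantile normalisation, 7 with only the groups compared and 7 with the replicate block. Library weights, whose estimation stopped before it converged, gave 26 increases and 17 decreases with LPS in Tet2 siRNA cells, 1 and 14 for Tet2 siRNA in untreated cells, and 1 and 29 in the averaged Tet2 siRNA difference. That difference had 1 increase with the stricter filter, 1 under quantile normalisation, and 0 decreases with no filter. The causes of these shifts in counts were not tested. Deviations from the group mean correlated at -0.28 to 0.63 between same-numbered libraries of different groups, and at -0.63 to 0.55 between differently numbered ones. Groups of 2 or 3 libraries constrain such correlations, so they cannot show whether the numbers pair the libraries. The replicate block gave 23 increases and 24 decreases with LPS in control siRNA cells and 10 decreases in the averaged difference. The averaged difference and the difference between LPS responses use all groups, so no fit of only the groups compared was run for them. With 2 libraries of Tet2 siRNA cells with LPS, leaving out 1 leaves a lone library, assumed to vary like the other groups.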
